A study of Mus musculus with 6 samples.

Results

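The 10 genes described here encode precursors of neuropeptides of the cerebral cortex: Sst (somatostatin), Vip (vasoactive intestinal peptide), Npy (neuropeptide Y), Cck (cholecystokinin), Tac1 (substance P and neurokinin A), Penk (enkephalins), Pdyn (dynorphins), Crh (corticotropin-releasing hormone), Cort (cortistatin) and Nts (neurotensin). They were chosen by name, and all 10 were measured, each by 1 probe set, among 19938 genes. RNA came from the adult forebrain cortex of 6 C57BL/6 mice, with 1 Affymetrix whole-transcript array per animal. The 3 animals labelled Dicer KO carry 1 CamKII-Cre transgene and 2 floxed alleles of Dicer, which trims hairpin precursors to the mature form of microRNAs. The 3 littermate controls are labelled as CamKII-Cre/+ with Dicer flox/+, or as Dicer flox/flox without Cre. Which of these genotypes each control has is not in the labels, so a control may carry Cre, and every animal carries at least 1 floxed Dicer allele. The CamKII promoter drives Cre in excitatory forebrain neurons. The study's question is how the adult cortex responds when those neurons lose Dicer.

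Neuropeptides are made as long precursors, cut in dense-core vesicles and released to act on G protein-coupled receptors. In the cortex Sst and Vip mark separate classes of GABAergic interneurons, Cort and much of Npy are found in Sst cells, and Npy is also made by neurogliaform cells. Cck is made by many excitatory neurons as well as by a class of basket cells, and Penk, Pdyn and Tac1 are abundant in the striatum beneath the cortex as well as in scattered cortical cells. In tissue RNA, fewer cells of a type and less RNA per cell cannot be told apart.

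Several of these genes are textbook targets of the cyclic AMP response element, TGACGTCA, which is bound by the activity-responsive factor CREB. The sites are therefore shown beside the values of activity-regulated genes given further on. Promoter windows of 300 bases, from 250 bases before to 50 after a gene's start (RefSeq, GRCm38.p6), were matched for 8 of the 10 genes, in 9 windows. Penk and Crh were not matched. The 8-base element, which reads the same on both strands, was found in 1 of these genes, Sst, and in 1.79% of all 32851 windows. Its 5-base core TGACG, searched on both strands and contained in the full element, was found in 6 of the 8 genes and in 20.8% of all windows. Each line below is written 5′ to 3′ on the gene's own strand, with the element or core in capitals (CGTCA is the core read from the other strand).
Sst, first base 48 before the start, chr16:23890859-23890918, minus strand: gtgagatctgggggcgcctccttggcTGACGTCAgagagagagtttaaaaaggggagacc
Vip, 79 before the start, chr10:5639113-5639169, plus strand: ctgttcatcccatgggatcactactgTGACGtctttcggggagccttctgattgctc
Cck, 47 before the start, chr9:121495711-121495767, minus strand: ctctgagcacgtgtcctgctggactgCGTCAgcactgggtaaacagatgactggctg
Tac1, 43 before the start, chr6:7554992-7555048, plus strand: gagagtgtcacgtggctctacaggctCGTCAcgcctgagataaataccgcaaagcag
Tac1 has a second core 197 bases before its start. Cort has a core 18 bases and Nts one 166 bases before its start, and the windows of Npy and Pdyn held neither sequence. A match describes these letters and was not tested for binding.

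None of the 10 genes passed the threshold, an adjusted p under 0.05 over all genes in limma, in the comparison of the arrays labelled Dicer KO with the controls. Over all 19938 genes 56 passed, or 0.281%, with 0.0903% higher and 0.191% lower. That count was 129 when labelled KO array 3 was dropped and 0 when any 1 of the other 5 was. At an unadjusted p under 0.05 there were 5 of the 10 genes, with Vip and Tac1 higher and Npy, Cck and Crh lower in the arrays labelled Dicer KO, against 14.4% of all genes, 7.01% higher and 7.39% lower. The arrays of the groups did not overlap for 3 of the 10, Vip, Cck and Crh, against 20.3% of all genes, 9.30% with the labelled KO arrays above and 11.0% with them below. The differences were split evenly, 5 above and 5 below 0, with a median of -0.044 on the log2 scale, where the median of all genes was -0.0092.

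**Figure D1:**
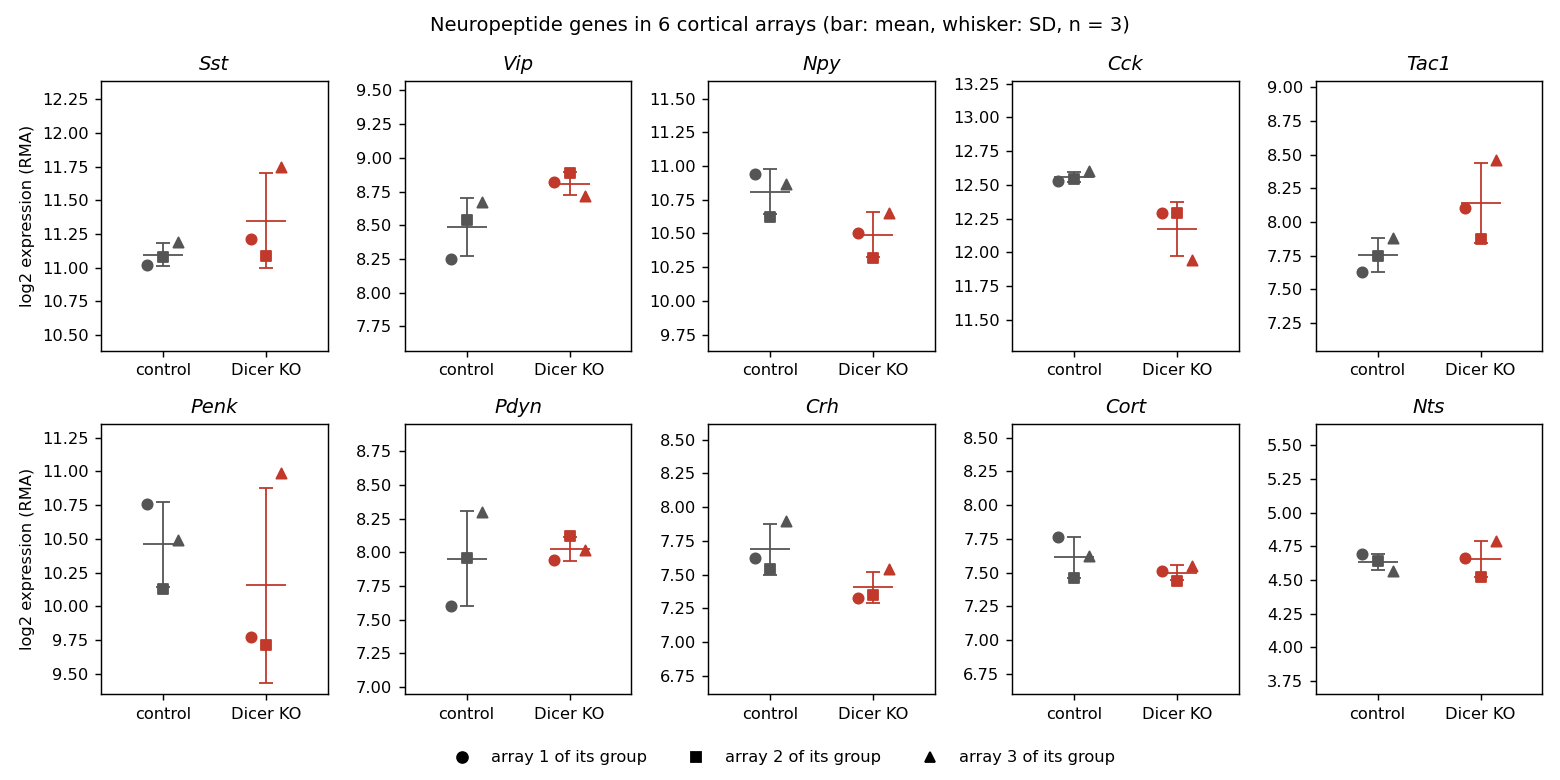
Log2 expression of each neuropeptide gene (y axis, RMA values; every panel spans the same number of log2 units) in the 3 control arrays (grey) and the 3 arrays labelled Dicer KO (red), with the group mean as a bar and the SD as whiskers. Vip lies higher and Cck and Crh lower in every labelled KO array than in every control, and Penk in the arrays labelled Dicer KO reads 9.77, 9.71 and 10.99.

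The arrays differ in cell type markers, in part along the groups and in part not. Slc17a7 and Camk2a, markers of excitatory neurons, read 12.06 to 12.37 and 12.65 to 13.25 in the 6 arrays, and Gad1, a marker of GABAergic neurons, read 11.49 to 12.03. Labelled KO array 3 had the highest mean of 11 microglia markers, 0.66 above the control mean, of 12 astrocyte markers, at 0.49, and of 13 striatal neuron markers, at 0.45. Of the 12 astrocyte markers, 6 were higher in every labelled KO array than in every control and 1 was lower (9.30% and 11.0% of all genes). At an unadjusted p under 0.05, 4 were higher and 1 lower (7.01% and 7.39% of all genes). None passed the threshold, and their median was 0.16. The 12 endothelial and mural markers had the same median, with 4 higher and 0 lower in every labelled KO array, and 3 higher and 0 lower at an unadjusted p under 0.05. Gja1 and Gjb6, gap junction genes of astrocytes, were at 0.44 ± 0.12 and 0.48 ± 0.13 (SE; limma adjusted p = 0.147 and 0.141). Gfap, the astrocyte intermediate filament gene, named after its values were seen, read 9.10, 8.92 and 10.44 against 8.34, 8.35 and 8.55, at 1.07 ± 0.33 (SE; adjusted p = 0.196) and at 0.60 without labelled KO array 3. The part of these marker differences in the neuropeptide differences was not tested. Control array 1 lay 0.77 above the control mean in 12 olfactory bulb markers, and control array 3 lay 0.55 above it in 21 activity-regulated genes. Eif2s3y, a Y-linked gene, read 9.07 to 9.29 in labelled KO arrays 1 and 3 and control array 2 and 3.94 to 4.44 in the other arrays. Dicer1 read 9.58, 9.68 and 9.46 in the arrays labelled Dicer KO against 9.17, 9.21 and 9.18, higher rather than lower (difference 0.39 ± 0.087 SE; adjusted p = 0.102). Which exons its probe set reads was not examined, so this does not check the deletion, and directions below are those of the arrays labelled Dicer KO.

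Cck, an abundant peptide of cortical excitatory neurons and also the marker of a class of basket cells, had the smallest p of the 10. Its log2 expression was 12.29, 12.29 and 11.94 in the arrays labelled Dicer KO and 12.53, 12.54 and 12.60 in the controls. All 3 labelled KO arrays lay below all 3 controls, and labelled KO array 3 was the lowest. The mean was 12.17 ± 0.20 against 12.56 ± 0.037 (SD, n = 3 each), a difference of -0.38 ± 0.11 (SE; 95% interval -0.63 to -0.13; limma adjusted p = 0.171). The difference was -0.27 when labelled KO array 3 was dropped, and -0.44 to -0.36 when another array was. Beside it, Slc17a7, the vesicular glutamate transporter, was at -0.10 ± 0.10 and Camk2a at -0.16 ± 0.13 (-0.014 without labelled KO array 3), and 19 excitatory neuron markers had a median of -0.011. Slc17a7 was at 0.0081 with labelled KO array 3 and control array 1 left out. At an unadjusted p under 0.05, 1 of those 19 markers was higher and 3 were lower (7.01% and 7.39% of all genes). For 1 all labelled KO arrays lay above all controls and for 2 below (9.30% and 11.0% of all genes). Of the 19 markers 1 passed the threshold, where 0.281% of all genes did. Nrgn, a calmodulin-binding postsynaptic protein, was at -0.60 ± 0.088 (SE; adjusted p = 0.0413), a call lost without any 1 array except labelled KO array 3 (adjusted p from 0.0834 to 0.188). The fits that lost it called 0 genes in all, so the loss is not particular to Nrgn. Nptx1, the marker of next smallest p, went the other way, at 0.41 ± 0.081 (SE; adjusted p = 0.079), and its groups did not overlap. Cnr1, the cannabinoid receptor carried by Cck basket cells, was at 0.24 ± 0.091 (SE; adjusted p = 0.275).

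Crh, which in the cortex is made mainly by interneurons, was the other gene whose labelled KO arrays all lay below the controls. It read 7.33, 7.35 and 7.54 against 7.62, 7.54 and 7.90. Labelled KO array 3 and control array 2 were the same to 2 decimals, and control array 3 was the highest. The difference was -0.28 ± 0.11 (SE; 95% interval -0.54 to -0.020; adjusted p = 0.314), and -0.17 without control array 3. Control array 3 was also highest for the activity-regulated genes.

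Vip is the peptide of a class of interneurons that inhibit other interneurons. It read 8.82, 8.89 and 8.72 in the arrays labelled Dicer KO and 8.25, 8.54 and 8.67 in the controls. Every labelled KO array lay above every control, although labelled KO array 3 and control array 3 were close, and control array 1 was the lowest. The mean was 8.81 ± 0.085 against 8.49 ± 0.21 (SD, n = 3 each), a difference of 0.32 ± 0.12 (SE; 95% interval 0.057 to 0.59; adjusted p = 0.256). The difference was 0.21 without control array 1 and 0.42 without control array 3. Htr3a, the ionotropic serotonin receptor found in the same branch of interneurons, was at 0.51 ± 0.14 (SE; adjusted p = 0.153), with no overlap between the groups: 7.51, 7.83 and 7.40 against 6.90, 7.01 and 7.30. Erbb4, a neuregulin receptor of interneurons, was at 0.32 ± 0.11 (adjusted p = 0.234), and at 0.21 without labelled KO array 3. Calb2, the calretinin gene, which marks some Vip cells and was named after its values were seen, read 7.77, 7.66 and 8.33 against 9.80, 7.54 and 7.85. Its difference was -0.47 ± 0.50 (SE; adjusted p = 0.728), and 0.23 when control array 1, the highest of the 6, was dropped (0.023 with labelled KO array 3 dropped too).

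Npy, an inhibitory peptide of Sst cells and neurogliaform cells, read 10.50, 10.32 and 10.65 in the arrays labelled Dicer KO and 10.94, 10.62 and 10.87 in the controls. Control array 2 lay just under labelled KO array 3, so the groups overlapped. The difference was -0.32 ± 0.12 (SE; 95% interval -0.59 to -0.046; adjusted p = 0.270), moving to -0.23 when labelled KO array 2 was dropped and to -0.41 when control array 2 was. Ndnf, a marker of neurogliaform cells, was at -0.35 ± 0.17 (adjusted p = 0.389), and at -0.15 without control array 1.

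Sst had the values 11.21, 11.09 and 11.75 in the arrays labelled Dicer KO and 11.02, 11.08 and 11.19 in the controls. Labelled KO array 3 stood alone at the top, and the other 5 arrays lay between 11.02 and 11.21. The difference of 0.26 ± 0.16 (SE; 95% interval -0.11 to 0.62; adjusted p = 0.522) was 0.056 without that array. Cort, a close relative of somatostatin that acts on the same receptors, read 7.51, 7.44 and 7.55 against 7.76, 7.46 and 7.62, a difference of -0.11 ± 0.098 (SE; 95% interval -0.34 to 0.11; adjusted p = 0.661). Dropping control array 2 gave -0.19 and dropping control array 1 gave -0.041. Of 13 markers of Sst interneurons, 1 passed the threshold, where 0.281% of all genes did. Cbln4, a secreted synapse organiser, was 2.39-fold lower, a log2 difference of -1.26 ± 0.18 (SE; limma adjusted p = 0.0408). It read 7.48, 7.48 and 7.38 against 8.67, 9.13 and 8.30, and its call was lost without any 1 array except labelled KO array 3 (adjusted p from 0.0549 to 0.167). The fits that lost it called 0 genes in all, so the loss is not particular to Cbln4. Cbln4 is also expressed outside Sst cells, and its call was known when the list was made. The other 12 of these markers did not pass, and the median of all 13 was 0.00063. At an unadjusted p under 0.05, 0 of the 13 were higher and 3 lower, Cbln4 among them (7.01% and 7.39% of all genes).

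Tac1, found in parvalbumin interneurons and in striatal neurons, read 8.10, 7.87 and 8.46 in the arrays labelled Dicer KO and 7.63, 7.75 and 7.88 in the controls. Labelled KO array 2 lay just under control array 3, and labelled KO array 3 was the highest. The difference was the largest positive one among the 10 genes, 0.39 ± 0.15 (SE; 95% interval 0.061 to 0.72; adjusted p = 0.266). Dropping labelled KO array 3 gave 0.23 and dropping labelled KO array 2 gave 0.53. Pvalb, the parvalbumin gene, was at -0.052 ± 0.10 (SE; adjusted p = 0.866), and at 0.025 without labelled KO array 1.

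Penk varied most among animals, over 1.28 log2 units. It read 9.77, 9.71 and 10.99 in the arrays labelled Dicer KO and 10.76, 10.13 and 10.49 in the controls. Labelled KO arrays 1 and 2 were the lowest of the 6, and labelled KO array 3 was the highest. The difference was -0.30 ± 0.31 (SE; 95% interval -1.01 to 0.41; adjusted p = 0.724). With labelled KO array 3 dropped it was -0.72 ± 0.17 (adjusted p = 0.0891), and with labelled KO array 2 dropped -0.078. Drd2, the dopamine receptor of the striatal neurons that make enkephalin, read 6.82, 6.54 and 7.81 against 6.60, 6.37 and 6.74, so it too was highest in labelled KO array 3. Ppp1r1b, which encodes the striatal phosphoprotein DARPP-32, read 9.49, 9.64 and 9.63 against 9.30, 9.26 and 9.32, with no such peak. Drd1, another dopamine receptor gene, read 8.72, 8.66 and 8.99 against 8.59, 8.53 and 8.48, at 0.25 ± 0.10 (SE; adjusted p = 0.317). The 13 striatal markers averaged 0.077, -0.018 and 0.45 relative to the control mean in labelled KO arrays 1 to 3, and -0.046, -0.10 and 0.14 in control arrays 1 to 3. At an unadjusted p under 0.05, 4 of them were higher and 0 lower (7.01% and 7.39% of all genes). For 4 all labelled KO arrays lay above all controls and for 1 below (9.30% and 11.0% of all genes), and the median was 0.14. With the mean of these 13 markers as a covariate, a fit added once the values were known, Penk was at -0.71 ± 0.20 (adjusted p = 0.084), Tac1 at 0.21 and Sst at 0.044. In the same fit Npy was at -0.42 (adjusted p = 0.0719), Crh at -0.39 (adjusted p = 0.0641), Vip at 0.33 and Cck at -0.28. Cort was at -0.15, Pdyn at 0.012 and Nts at -0.03. The part of striatal tissue in these differences was not tested.

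**Figure D2:**
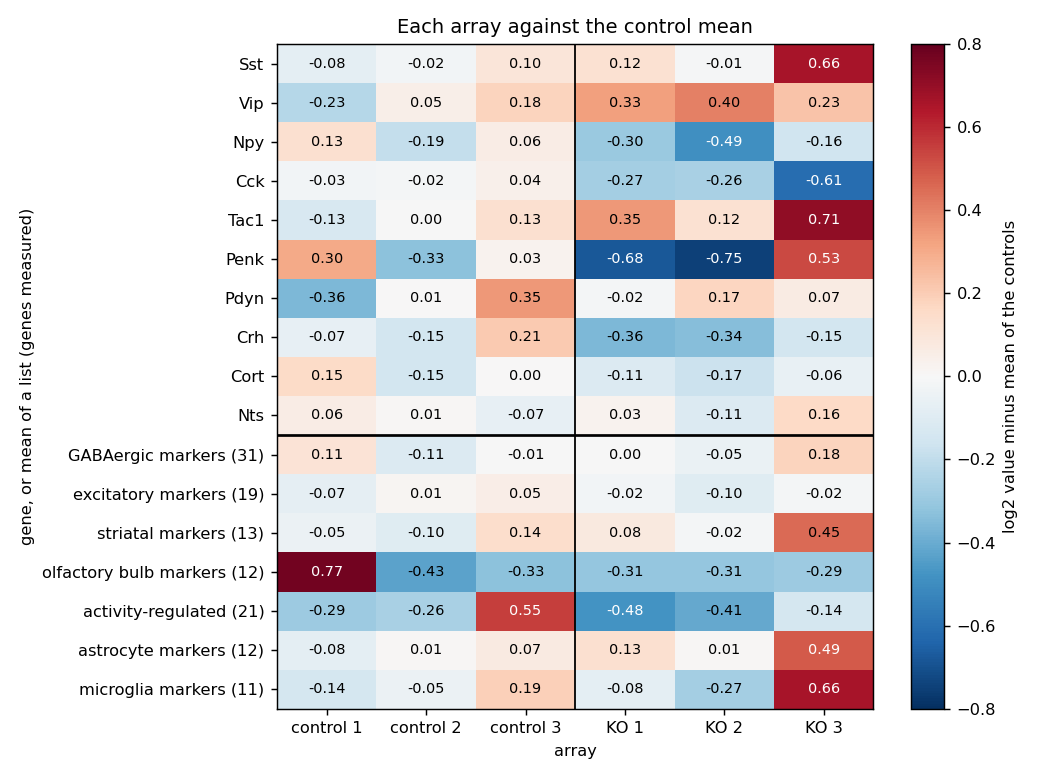
Log2 value of each gene in each array minus the mean of the 3 controls (rows above the line), and the same averaged over lists of markers (rows below the line, genes measured in brackets). Each column is an array and the colour runs from blue (lower) to red (higher). Labelled KO array 3 is high for Sst, Tac1 and Penk at 0.66, 0.71 and 0.53, and for the striatal, astrocyte and microglia markers at 0.45, 0.49 and 0.66.

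By the rule set for likeness, the genes whose profile over the 6 arrays was most like that of Penk were Ptpn9, a protein tyrosine phosphatase, at a Pearson r of 0.978, Tubb6, a tubulin, at 0.963, and the histone gene H3c4 at 0.942. They were picked among 2563 genes whose own range was at least 0.5 times that of Penk. With 6 arrays many genes can share a profile, so these values are a description.

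Pdyn, the dynorphin precursor, read 7.94, 8.12 and 8.02 in the arrays labelled Dicer KO, inside the range of the controls at 7.60, 7.96 and 8.30. Control arrays 1 and 3 were the lowest and the highest of all 6. The difference was 0.072 ± 0.16 (SE; 95% interval -0.29 to 0.44; adjusted p = 0.884), at -0.11 without control array 1 and 0.25 without control array 3. Nts, the neurotensin precursor, was dim, at 4.66, 4.52 and 4.79 against 4.69, 4.64 and 4.57, where the medians of the arrays were 7.13 to 7.22. Its difference was 0.026 ± 0.096 (SE; 95% interval -0.19 to 0.24; adjusted p = 0.936). Signal over background is unknown here and RMA draws dim values together, so a change of Nts may not have been detectable.

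**Figure D3:**
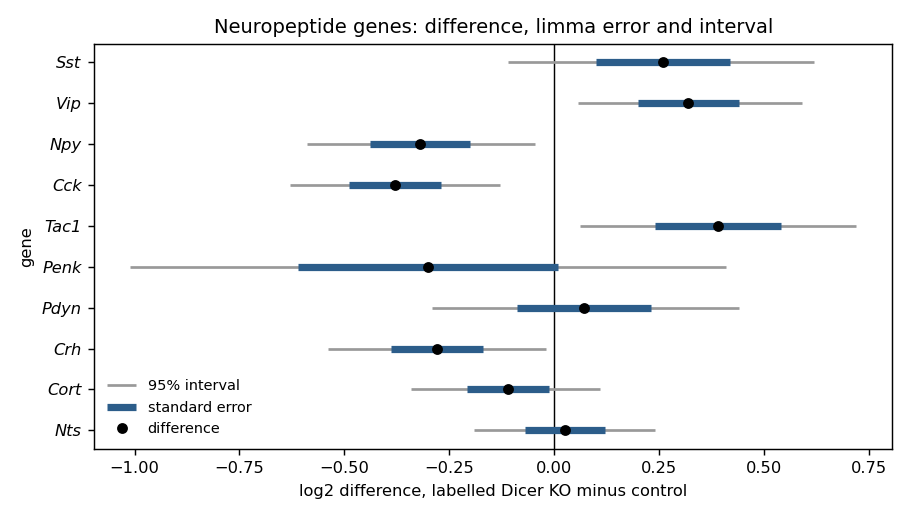
Difference in log2 expression, labelled Dicer KO minus control (x axis), for each neuropeptide gene (y axis), with the moderated standard error (thick line) and 95% interval (thin line) of the limma fit. Intervals of Vip, Npy, Cck, Tac1 and Crh leave out 0 before any adjustment, and that of Penk is the widest, from -1.01 to 0.41.

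**Figure D4:**
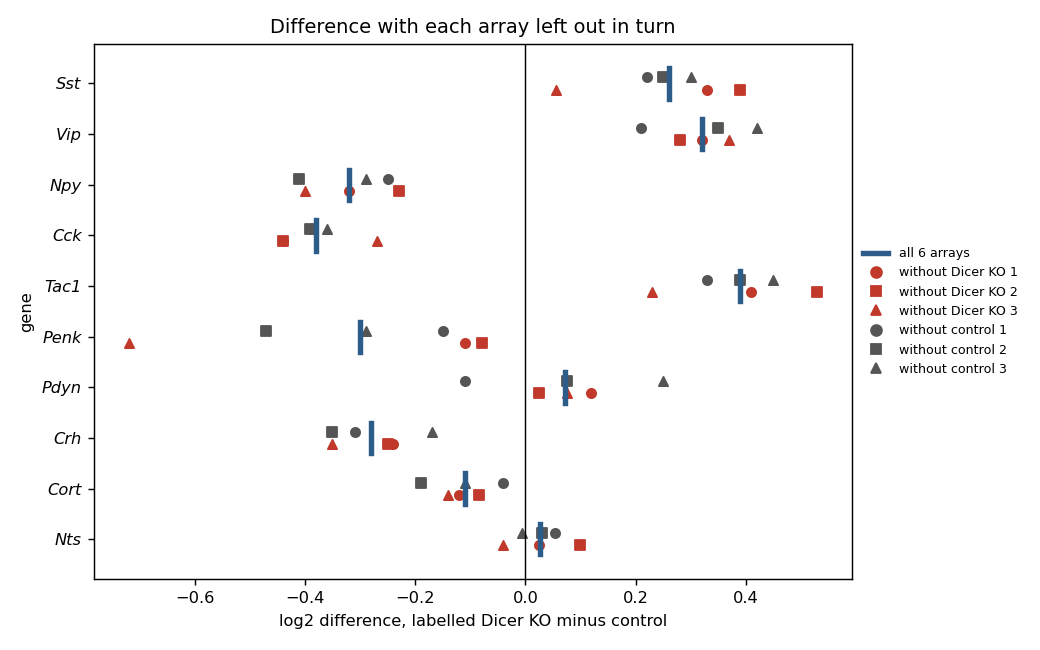
The same log2 difference (x axis) for each gene (y axis) with all 6 arrays (blue bar) and with each array left out in turn (red for a labelled KO array, grey for a control, the shape giving the array number). Penk spans -0.72 to -0.078 and Sst 0.056 to 0.39, while Cck stays between -0.44 and -0.27.

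The 31 measured GABAergic interneuron markers outside the peptides gave a background for the interneuron peptides. None passed the threshold. All labelled KO arrays lay above all controls for 5 of the 31 and below for 0 (9.30% and 11.0% of all genes). At an unadjusted p under 0.05, 3 were higher and 0 lower (7.01% and 7.39% of all genes), and the median of the 31 markers was 0.00063. Their mean was -0.0040, -0.052 and 0.18 relative to the control mean in labelled KO arrays 1 to 3, and 0.11, -0.11 and -0.0061 in control arrays 1 to 3. Gad1, which makes GABA, was at 0.082 ± 0.13 and Gad2 at 0.16 ± 0.12 (SE). Gad1 was at -0.029 without control array 2 and Gad2 at 0.049 without labelled KO array 3.

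Of the 26 receptors of these peptides, all were measured and none passed the threshold, with 1 higher and 3 lower at an unadjusted p under 0.05, where 7.01% of all genes were higher and 7.39% lower, and a median of -0.032. Sstr4, a somatostatin and cortistatin receptor, read 9.11, 9.10 and 9.08 against 9.35, 9.44 and 9.48. All its labelled KO arrays lay below the controls, a difference of -0.33 ± 0.080 (SE; adjusted p = 0.120). Crhr1, the main cortical receptor of corticotropin-releasing hormone, read 8.51, 8.67 and 8.36 against 8.98, 8.88 and 8.83. It too showed no overlap, at -0.39 ± 0.10 (SE; adjusted p = 0.139). The receptor of the Vip family Adcyap1r1, which prefers the related peptide PACAP, was at 0.33 ± 0.11 (adjusted p = 0.213) and the mu opioid receptor gene Oprm1 at -0.23 ± 0.095 (adjusted p = 0.321).

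By ligand, the 5 somatostatin receptor genes lay between -0.33 and 0.045 and the 3 Vip family receptor genes between -0.25 and 0.33. The 5 genes of neuropeptide Y receptors lay between -0.090 and 0.28, the 2 of cholecystokinin at 0.064 and 0.12, and the 3 of tachykinins between -0.15 and -0.024. The 3 opioid receptor genes lay between -0.23 and -0.11, the 2 Crh receptor genes at -0.39 and -2.5e-05, and the 3 neurotensin receptor genes between -0.040 and 0.22. Crh and its receptor Crhr1 were thus both lower in every labelled KO array than in every control. Of the 26 receptor genes, 5 were lower in this way and 1 was higher (11.0% and 9.30% of all genes). Cck read lower and its receptor genes did not, and none of the genes in these comparisons passed the threshold.

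**Figure D5:**
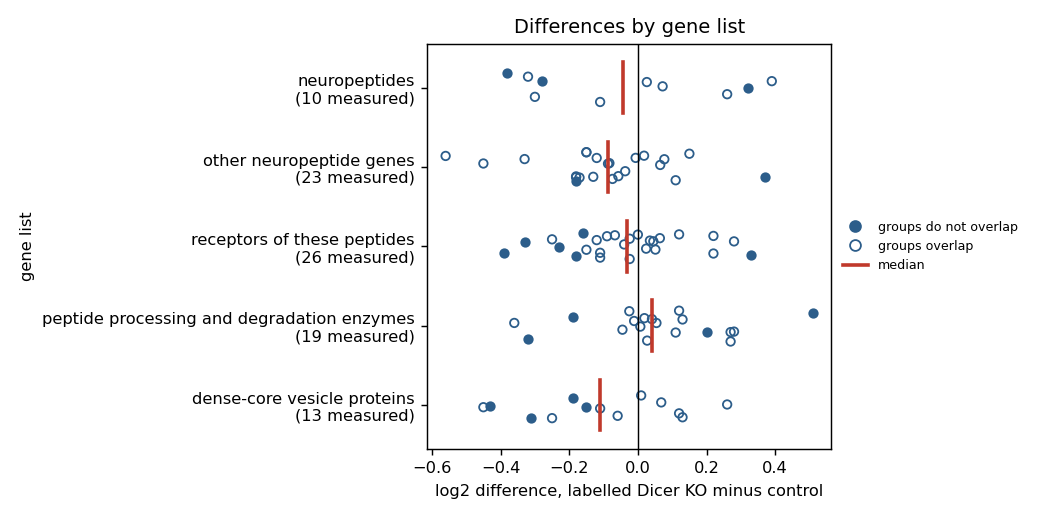
Log2 difference, labelled Dicer KO minus control (x axis), of each measured gene in 5 lists (y axis). A filled point is a gene whose groups do not overlap, an open point one whose groups overlap, the red bar is the median, and points are spread vertically only to be seen. Medians run from -0.11 for dense-core vesicle proteins to 0.041 for processing enzymes.

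Enzymes that cut, trim and degrade peptides were measured for 19 of 21 listed genes, and none passed the threshold. At an unadjusted p under 0.05, 2 were higher and 2 lower, beside 7.01% and 7.39% of all genes. For 2 all labelled KO arrays lay above all controls and for 2 below (9.30% and 11.0% of all genes). Mme, which encodes neprilysin, a protease that degrades enkephalins and substance P, was at 0.51 ± 0.19 (SE; adjusted p = 0.269), and its groups did not overlap: 7.83, 7.78 and 8.37 against 7.15, 7.56 and 7.76. Its difference was 0.32 without labelled KO array 3, 0.34 without control array 1 and 0.15 without both. Cpe, the carboxypeptidase that trims the cut peptides, was at 0.20 ± 0.087 (adjusted p = 0.336). The oligopeptidase genes Prep and Thop1 were at -0.32 ± 0.094 and -0.19 ± 0.082 (SE; adjusted p = 0.178 and 0.340).

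Of 13 dense-core vesicle genes none passed. At an unadjusted p under 0.05, 0 were higher and 3 lower, against 7.01% and 7.39% of all genes, and the median was -0.11. For 4 of the 13 all labelled KO arrays lay below all controls and for 0 above (11.0% and 9.30% of all genes). Cadps2, which primes dense-core vesicles for release, came nearest. It read 9.98, 9.88 and 9.78 against 10.28, 10.37 and 10.27, all 3 labelled KO arrays below the controls, a difference of -0.43 ± 0.088 (SE; adjusted p = 0.0845). Vgf, a cargo protein induced by activity, was at -0.31 ± 0.12, the vesicle phosphatase-like gene Ptprn2 at -0.19 ± 0.084 and the chromogranin gene Chga at -0.25 ± 0.13 (SE; adjusted p = 0.268, 0.338 and 0.429). Vgf was at -0.18 without labelled KO array 2, and Chga at -0.14 without control array 3.

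Among 23 of 25 other neuropeptide genes that were measured, none passed the threshold, 6 were above 0 and 17 below, and the median was -0.087. At an unadjusted p under 0.05, 1 was higher and 1 lower (7.01% and 7.39% of all genes). For 1 all labelled KO arrays lay above all controls and for 1 below (9.30% and 11.0% of all genes). Tac2, the neurokinin B precursor found in Vip interneurons, read 7.69, 7.62 and 7.77 against 7.37, 7.13 and 7.45, higher in every labelled KO array, at 0.37 ± 0.10 (SE; adjusted p = 0.159). Adcyap1, the precursor of PACAP, was at -0.45 ± 0.18, the gastrin-releasing peptide gene Grp at -0.56 ± 0.25 and Cartpt at -0.33 ± 0.15 (SE; adjusted p = 0.283, 0.355 and 0.371). All 3 had overlapping groups. Grp was highest in control array 3, at 8.59, and without that array its difference was -0.25, while that of Cartpt was -0.52. Cartpt was at -0.22 without control array 1.

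The 21 activity-regulated genes had a median of -0.41, with 2 above 0 and 19 below, and none passed the threshold. At an unadjusted p under 0.05, 1 was higher and 8 were lower, where 7.01% and 7.39% of all genes were. The one that was higher was Per1, a clock gene induced by activity and named after its values were seen. It read 9.65, 9.70 and 9.70 against 8.87, 8.98 and 9.44, at 0.58 ± 0.14 (SE; adjusted p = 0.118). Their mean was -0.48, -0.41 and -0.14 relative to the control mean in labelled KO arrays 1 to 3, and -0.29, -0.26 and 0.55 in control arrays 1 to 3, so the groups overlapped and control array 3 stood apart. Egr3, an immediate early transcription factor, read 8.73, 8.83 and 8.85 against 9.22, 9.48 and 9.34, at -0.54 ± 0.094 (SE; adjusted p = 0.0590). Bdnf, the neurotrophin that Npy and Sst expression is known to follow, was at -0.43 ± 0.097 (adjusted p = 0.102), and Fos, the classic early gene, at -0.41 ± 0.43 and at 0.18 without control array 3. Sst, the gene with the full element, was at 0.26. Those with a core, Vip, Cck, Tac1, Cort and Nts, were at 0.32, -0.38, 0.39, -0.11 and 0.026, in both directions. Npy and Pdyn, with neither sequence in the 300 bases searched, were at -0.32 and 0.072. Penk and Crh, for which no promoter window was matched, were at -0.30 and -0.28. The part of activity in these differences was not tested.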

How the data were processed

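Total RNA of 6 mouse cortices, 3 per group, was measured on Affymetrix whole-transcript arrays, 1 per animal. The deposited values are log2 expression per probe set, made by the authors with RMA, per the submitters' processing notes, which also name limma. No source used here gives tool versions or the background method. RMA evens out the arrays' distributions (their medians were 7.13 to 7.22), which can hide a change shared by most genes, and no detection call was used. The number of arrays limits the precision.

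Of 35557 rows, 21789 had 1 gene symbol in the platform's probe table. Symbols were updated through gene identifiers (GRCm38.p6), and the brightest probe set was kept for 19938 genes. Differences were fitted with limma 3.58.1 (R 4.3.3), using lmFit and eBayes over all 6 arrays with no term but the group. The prior had 4.89 degrees of freedom. Two-sided p-values were adjusted by Benjamini-Hochberg over all genes, and the threshold was 0.05. An exact permutation test of 3 against 3 cannot go below 0.1, so none was run. The labels call the arrays biological replicates, and any pair differed in at least 35523 rows. The fit was tested on simulated data.

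The genes and lists were chosen with earlier results of these data known. Named genes are the 10 neuropeptides, in the lists of receptors, enzymes, vesicle proteins, other peptides and interneuron markers those past the threshold or the 4 of smallest p, in other lists up to 2 of smallest p, defining markers and the 3 genes most like the most variable member. Receptors outside the 4 of smallest p, which the rule would name one by one, are given as ranges by ligand. Some genes that the rule names in the other marker lists are given only through their list's values. Among these, Ttr, a choroid plexus marker, read 9.85, 10.95 and 8.30 in the arrays labelled Dicer KO against 8.73, 8.34 and 8.18 (difference 1.28 ± 0.53 SE; limma adjusted p = 0.319). Wfs1, in the hippocampal list, was at -0.73 ± 0.13 (SE; limma adjusted p = 0.0565). Of the marker lists, those for hippocampus (median -0.034), claustrum, amygdala and hypothalamus (-0.0038), choroid plexus (-0.032), oligodendrocytes (0.15) and endothelial and mural cells (0.16) held no gene past the threshold. Alternatives were other scaling, priors, weights, filters, covariates and arrays left out.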

Additional observations from a re-analysis of the deposited data

How the results depend on the processing

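None of the 10 neuropeptide genes passed the threshold in any of 19 alternative fits or at an adjusted p under 0.1 in the fit reported above. Several of these fits, given below, called 0 genes in all, so no neuropeptide gene could pass in them. Crh, Cort and Nts were not in the fit without dim genes. At an unadjusted p under 0.05 there were 1 to 6 of the 10, where all genes gave 1788 (interneuron marker mean subtracted) to 4727 (array weights). Some fits could not change a direction, as they leave the difference itself unchanged. These were the replicate block, the mean of probe sets, every row, no dim genes, the trended robust prior and no moderation. With these included, 179 of 187 fits of single genes kept the direction. The exceptions were Pdyn, from -0.11 (without control array 1) to 0.25 with 1 array left out and at -0.10 with labelled KO array 3 and control array 1 left out, and Nts, from -0.041 (without labelled KO array 3) to 0.10 with 1 array left out and at -0.0068 without control array 3, -0.012 with Eif2s3y as a covariate, -0.016 with the interneuron marker mean subtracted, -0.013 with the pair of arrays left out and -0.03 with the striatal covariate. Among other genes, Slc17a7 was at 0.0081 and Eif2s3y at -0.068 with that pair left out, and with 1 array left out Gad1 lay between -0.029 (without control array 2) and 0.24, Pvalb between -0.14 and 0.025 (without labelled KO array 1) and Fos between -0.79 and 0.18 (without control array 3). Leaving out the pair and the striatal covariate were chosen after the data were seen.

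The count over all genes, 56, was 0 to 129 with 1 array left out, 12 with the pair left out, 178 without dim genes, 0 over every row, 1116 with array weights, 0 without moderation, 0 with Eif2s3y as a covariate, 687 with the striatal covariate and 320 at an adjusted p under 0.1. At an unadjusted p under 0.05 limma gave 3725 rows over every row, 2403 genes without moderation and 2272 with Eif2s3y. Array weights called 2 receptor genes and 1 processing or vesicle gene, the striatal covariate called 1 of the latter, and 1 passed at an adjusted p under 0.1. Of genes reported above as not passing, array weights called Crhr1, Sstr4, Cadps2, Tac2 (adjusted p = 0.028), Htr3a (0.0254), Gja1, Per1, Bdnf, Egr3 and Dicer1, and the striatal covariate called Adcyap1 (0.0194), Bdnf, Egr3 and Dicer1. Egr3 also passed with the replicate block (adjusted p = 0.0417), with quantile normalization and without dim genes. Cbln4 and Nrgn did not pass over every row, without moderation, with Eif2s3y as a covariate or with the pair left out, nor did Nrgn with the interneuron marker mean subtracted. The cause was not tested. With the array number as a replicate block 215 genes were called and no neuropeptide gene. Deviations of same-numbered arrays correlated at 0.089, 0.166 and 0.294, and 5 of 6 arrays correlated best with their own number, a hint from the data and not from the design.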
